A study of Mus musculus with 6 samples.

Results

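Cdkn1a, the gene for p21, and the genes of the other inhibitors of cyclin-dependent kinases (CDKs) were followed in liver RNA of p21TKO and DKO mice. The genes were the 3 Cip/Kip inhibitors Cdkn1a, Cdkn1b and Cdkn1c and the 4 INK4 inhibitors Cdkn2a, Cdkn2b, Cdkn2c and Cdkn2d, chosen by symbol, and each of the 7 had a single row among the 55573 genes listed. The p21TKO mice were of genotype p21-/- mTR-/- Wrn-/- and the DKO mice of genotype mTR-/- Wrn-/-, all of generation 3, and the p21TKO mice were described as already progeroid, with 3 polyA RNA libraries per genotype. By these labels all mice, the DKO mice included, lacked mTR, the RNA template of telomerase, and Wrn, a RecQ helicase gene, and the stated question was what differs once p21 is lost in addition. All mice had normal feed. The titles carry the mark 2M, which the labels do not explain, and age, sex and the design of the deleted alleles are not stated in the sources. The labels do not state whether the libraries of a group stem from different animals. Each p-value reflects the spread between libraries, and the Y-linked values given below show that the libraries of a group did not all come from 1 animal.

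CDK inhibitors hold back the kinases that drive cells through the division cycle. Cip/Kip proteins bind complexes of a cyclin with CDK2 and also attach to cyclin D complexes, whereas INK4 proteins bind CDK4 and CDK6 themselves and keep cyclin D from joining them. p21 is the member best known as a target of the tumour suppressor p53, and with the INK4 protein p16 it is one of the usual markers of senescent cells. Liver cells of adult mice are mostly at rest.

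Levels are given as FPKM, deposited by the authors (reads scaled to exon length and to library size), which allows levels of different genes to be set side by side. The FPKM scale rested on 19363284 to 27061291 reads per library, and the deposited values could be turned back into whole reads. Hepatocyte markers summed to 48260 to 54093 FPKM in p21TKO and 38302 to 49483 FPKM in DKO, with none of the 8 at 0. Transcripts of 4 Y-linked genes were found in p21TKO replicate 1 and in DKO replicates 2 and 3, while p21TKO replicates 2 and 3 and DKO replicate 1 stood at 0 for them. Differences are of log2(FPKM + 1), which understates changes of low genes, and were tested with limma over the 9538 genes with a mean of at least 1 FPKM. Of these 7 were called at an adjusted p under 0.05 (0.0734%), 3 higher (0.0315%) and 4 lower (0.0419%) in p21TKO. Among the CDK inhibitors 4 of 7 were high enough for this test and 0 were called by limma, with 1 at an unadjusted p under 0.05 and 0 called by voom on whole reads. Over all tested genes 9.38% had an unadjusted p under 0.05, 4.09% higher and 5.29% lower. The values of the groups overlapped for all 7, while groups did not overlap for 15.4% of the genes tested (6.93% higher and 8.49% lower in p21TKO). With 3 libraries against 3, an exact two-sided permutation test cannot go below 0.1.

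Cdkn1a RNA was found in every library, and its highest levels were in p21TKO replicates 2 and 3. Cdkn1a (ENSMUSG00000023067, chromosome 17, 29090976 to 29100727, plus strand, GRCm38) stood at 1.41, 11.05 and 6.50 FPKM in p21TKO replicates 1, 2 and 3, and at 0.761, 1.79 and 0.405 FPKM in DKO replicates 1, 2 and 3. These values came from 97, 901 and 625 reads in p21TKO and from 65, 137 and 32 reads in DKO. p21TKO replicate 1 lay below DKO replicate 2, so the groups overlapped. Counting error was small beside this scatter, since the exact Poisson 95% intervals ran from 1.14 to 1.72 FPKM in p21TKO replicate 1, from 10.3 to 11.8 FPKM in p21TKO replicate 2 and from 6.001 to 7.03 FPKM in p21TKO replicate 3. In DKO they ran from 0.588 to 0.970, from 1.505 to 2.12 and from 0.277 to 0.572 FPKM in replicates 1, 2 and 3. The intervals of p21TKO replicate 1 and DKO replicate 2 overlapped, and those of p21TKO replicates 2 and 3 overlapped with no other library. Intervals cover counting error only.

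The mean Cdkn1a level was 6.32 ± 4.82 FPKM in p21TKO and 0.986 ± 0.720 FPKM in DKO (SD, n = 3 each), a ratio of 6.41. The difference of 1.66 (SE 0.59, 95% interval 0.25 to 3.07) did not pass (limma p = 0.0273, adjusted p = 0.523, exact permutation p = 0.2). A difference of at least this size, in either direction, was seen in 160 of the 9538 genes (1.68%). The within-group SD of log2(FPKM + 1) was 0.92 for Cdkn1a against a median of 0.29 over the tested genes, and 95.1% of those genes had a smaller one. Within p21TKO, replicate 2 held 7.84 times and replicate 3 held 4.61 times the level of replicate 1, and within DKO replicate 2 held 4.42 times that of replicate 3. The scatter within each group was thus several-fold. Without p21TKO replicate 1 the difference was 2.32 and passed (limma adjusted p = 0.0224), in a fit that called 495 genes (5.19%), 225 of them higher (2.36%) and 270 lower (2.83%). That fit set p21TKO replicates 2 and 3, without Y-linked transcripts, against a DKO group in which replicates 2 and 3 had them. Genotype and Y-linked transcripts are thus largely confounded in it. It also leaves out the p21TKO library with the lowest Cdkn1a, the only one that lay below a DKO library. The pass therefore adds no support to the difference. The Y-linked transcripts are unevenly divided between the groups. Among libraries with them the difference was 0.28 (p21TKO replicate 1 against DKO replicates 2 and 3), and among those without them it was 2.43 (p21TKO replicates 2 and 3 against DKO replicate 1). With a term for them it was 1.36 (limma adjusted p = 0.646).

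**Figure D1:**
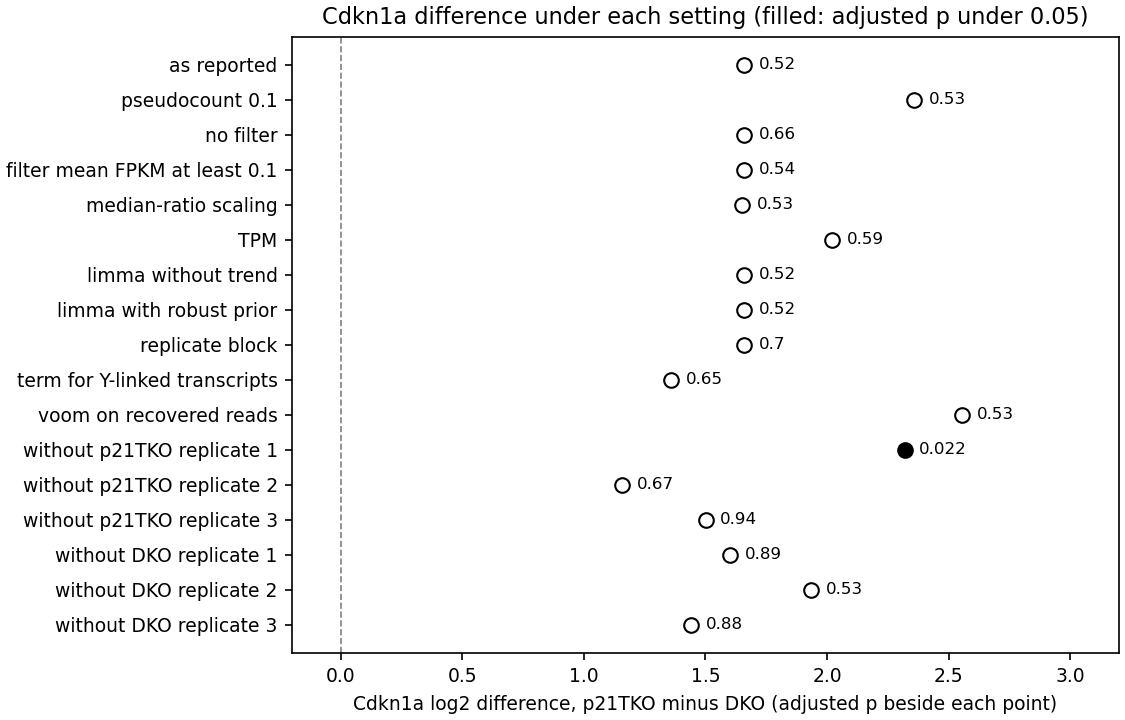
Cdkn1a difference in log2(FPKM + 1), or in log2 of the rescaled values or reads, p21TKO minus DKO (horizontal axis) under each setting, with the limma adjusted p beside each point. All values lie between 1.16 and 2.55, and the only adjusted p under 0.05 is that without p21TKO replicate 1 (2.32).

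The mean level of the gene named as deleted was thus not lower in p21TKO, although p21TKO replicate 1 lay below DKO replicate 2. The sources do not say which exons the p21 allele lacks, and the FPKM cover the 3553 exon bases of all 5 annotated transcripts, so the values do not check the deletion and say nothing about p21 protein. An unclassified gene on the other strand, AC167363.2, shares 273 of these bases, and no source states whether counting used strand. It stood at 0 to 0.0833 FPKM in p21TKO and at 0 to 0.119 FPKM in DKO. Wrn stood at 0.279, 0.224 and 0.214 FPKM in p21TKO and at 0.197, 0.294 and 0.278 FPKM in DKO, a log2 difference of -0.020. Reads of Wrn, 36 to 48 per library, were thus found in every library labelled Wrn-/-, and since its deleted exons are not stated either, they do not check that deletion. Terc, the mTR gene, had 2 rows, and the row used, which has an exon length, had 0 reads in all 6 libraries. The other row is not reported here. In the row used, 3 reads would have given 0.262 to 0.366 FPKM in p21TKO and 0.295 to 0.330 FPKM in DKO. Terc RNA lacks a polyA tail, so polyA libraries carry little information on it.

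**Figure D2:**
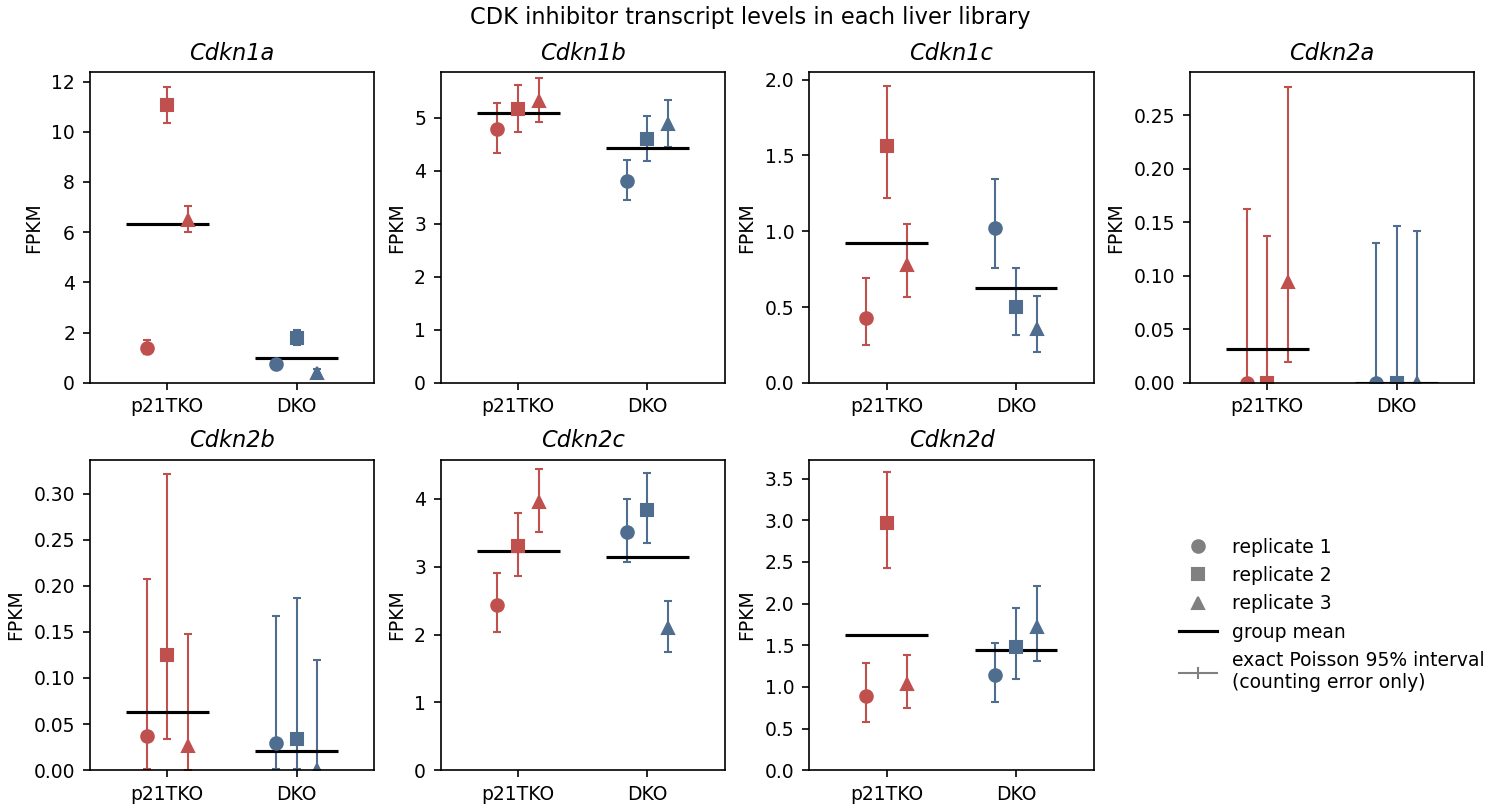
FPKM (vertical axes, from 0, each panel on its own scale) of the 7 CDK inhibitor genes in each p21TKO (red) and DKO (blue) library, with exact Poisson 95% intervals for counting error and a line at each group mean. Cdkn1a is high in p21TKO replicates 2 and 3 (11.05 and 6.50 FPKM), while Cdkn1b lies between 3.81 and 5.32 FPKM in all 6 libraries.

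Cdkn1a is transcribed from more than one start, and RefSeq promoter windows (GRCm38.p6) were available for 6 of the 7 genes. The 250 bases before each start are printed for Cdkn1a because its level varied most among the members with reads in every library, and for Cdkn1b because its level varied least. Capitals mark CATGNNNNNNCATG, which is its own reverse complement and holds the core letters of a p53 element, and GGGCGG on either strand, the letters of a GC box, and these motifs were chosen with the values known. The first Cdkn1a window lies at chr17:29090729-29090978 and the second at chr17:29093519-29093768, both on the plus strand, and the Cdkn1b window lies at chr6:134920151-134920400 on the plus strand.
Cdkn1a window 1: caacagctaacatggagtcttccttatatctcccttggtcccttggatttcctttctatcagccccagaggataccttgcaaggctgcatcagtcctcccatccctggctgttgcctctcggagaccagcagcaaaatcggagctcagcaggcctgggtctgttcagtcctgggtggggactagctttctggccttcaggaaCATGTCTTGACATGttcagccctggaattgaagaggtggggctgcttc
Cdkn1a window 2: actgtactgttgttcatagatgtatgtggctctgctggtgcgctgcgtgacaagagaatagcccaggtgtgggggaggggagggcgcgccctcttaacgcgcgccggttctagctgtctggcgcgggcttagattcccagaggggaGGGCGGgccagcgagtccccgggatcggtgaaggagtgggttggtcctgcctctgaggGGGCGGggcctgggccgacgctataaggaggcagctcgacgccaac
Cdkn1b window: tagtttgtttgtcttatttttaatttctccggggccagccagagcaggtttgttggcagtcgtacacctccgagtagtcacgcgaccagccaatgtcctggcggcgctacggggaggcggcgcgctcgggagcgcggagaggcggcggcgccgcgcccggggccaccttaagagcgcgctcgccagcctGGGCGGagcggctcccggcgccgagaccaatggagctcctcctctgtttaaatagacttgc
The first Cdkn1a window held CATGTCTTGACATG, which begins 48 bases before the start, and no GGGCGG. That letter pattern was present in 161 of 32851 windows (0.490%). It was in no other window of these genes. The second Cdkn1a window held 2 copies of GGGCGG and the Cdkn1b window 1, a motif found in 32.7% of all windows. The first Cdkn1a window had 2 CpG dinucleotides, the second 19 and the Cdkn1b window 28, against a median of 6 over all windows. A match describes the letters only, and the FPKM do not tell which start was used.

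Cdkn1b, which encodes p27, was the steadiest member. It stood at 4.79, 5.16 and 5.32 FPKM in p21TKO replicates 1, 2 and 3 and at 3.81, 4.59 and 4.87 FPKM in DKO replicates 1, 2 and 3 (ENSMUSG00000003031, chromosome 6, 134920401 to 134925513). p21TKO replicate 1 lay below DKO replicate 3 and above the other DKO libraries. The highest library held 1.39 times the level of the lowest, against 27.3 times for Cdkn1a. Its within-group SD of 0.12 on the log2 scale was smaller than that of most genes, with 7.49% of tested genes below it. The means were 5.09 ± 0.272 FPKM in p21TKO and 4.43 ± 0.550 FPKM in DKO (SD, n = 3 each), and the log2 difference of 0.17 did not pass (SE 0.15, 95% interval -0.18 to 0.52, limma adjusted p = 0.692, exact permutation p = 0.2). That interval excludes a difference of the size measured for Cdkn1a.

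Cdkn1c, which encodes p57 and is expressed from the maternal chromosome in mice, lay between 0.353 and 1.56 FPKM. Its level was 0.431, 1.56 and 0.779 FPKM in p21TKO replicates 1, 2 and 3 and 1.02, 0.501 and 0.353 FPKM in DKO replicates 1, 2 and 3 (ENSMUSG00000037664, chromosome 7, 143458339 to 143461050), from 16 to 73 reads. p21TKO replicate 2 was highest and DKO replicate 1 next, and the other libraries of each group lay below both. Its mean over the 6 libraries, 0.774 FPKM, was under the filter. In the fit with no filter the log2 difference was 0.22 (95% interval -0.44 to 0.89, limma adjusted p = 0.777, exact permutation p = 0.6), and 1 of 24082 genes was called there (0.00415%). It rested on p21TKO replicate 2, since the difference was -0.0052 without that library, 0.41 without p21TKO replicate 1 and 0.39 without DKO replicate 1. An antisense gene, Gm44732, shares 625 of its 2039 exon bases and was listed at 0 FPKM in all 6 libraries.
Of 10 imprinted-cluster genes listed beside Cdkn1c, 4 were tested and 0 were called by limma, with 1 at an unadjusted p under 0.05 and 0 by voom. That gene was Tssc4, at 9.01, 7.39 and 13.9 FPKM in p21TKO and 4.85, 6.20 and 5.68 FPKM in DKO (limma adjusted p = 0.523). Nap1l4, a histone chaperone gene, stood at 14.0 ± 2.81 FPKM in p21TKO and 11.97 ± 0.210 FPKM in DKO. Tssc4 and Nap1l4 had groups that did not overlap, as had 15.4% of all tested genes, 6.93% of them higher in p21TKO as here. Slc22a18, a transporter gene, stood at 37.6 ± 13.1 FPKM in p21TKO and 44.8 ± 2.09 FPKM in DKO, and the tetraspanin gene Cd81 at 55.8 ± 25.6 FPKM in p21TKO and 64.5 ± 10.8 FPKM in DKO (SD, n = 3 each).

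Among the INK4 genes, Cdkn2c and Cdkn2d carried nearly all the reads. Cdkn2c, which encodes p18, stood at 2.44, 3.31 and 3.96 FPKM in p21TKO replicates 1, 2 and 3 and at 3.52, 3.84 and 2.09 FPKM in DKO replicates 1, 2 and 3 (ENSMUSG00000028551, chromosome 4, 109660876 to 109667189). The lowest library was DKO replicate 3 and the highest p21TKO replicate 3, and the groups overlapped throughout. Its log2 difference of 0.04 did not pass (SE 0.23, 95% interval -0.51 to 0.59, limma adjusted p = 0.960, exact permutation p = 0.9).
Cdkn2d, which encodes p19, stood at 0.886, 2.96 and 1.03 FPKM in p21TKO replicates 1, 2 and 3 and at 1.14, 1.48 and 1.72 FPKM in DKO replicates 1, 2 and 3 (ENSMUSG00000096472, chromosome 9, 21288410 to 21291407). A single library, p21TKO replicate 2, was above all DKO libraries and the other p21TKO libraries were below them. The log2 difference of 0.03 did not pass (SE 0.30, 95% interval -0.69 to 0.75, limma adjusted p = 0.980, exact permutation p = 1). It was -0.46 among libraries with Y-linked transcripts and 0.41 among those without them, and -0.31 without p21TKO replicate 2. The corresponding values for Cdkn2c were -0.17 and 0.034, and for Cdkn1b 0.014 and 0.37.

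Cdkn2a and Cdkn2b, neighbours on chromosome 4, were at or near the limit of detection. Cdkn2a, whose alternative first exons give p16 and the unrelated protein ARF, had 0, 0 and 3 reads in p21TKO replicates 1, 2 and 3 and 0 reads in each DKO library (ENSMUSG00000044303, 89274471 to 89294653). The 3 reads correspond to 0.0946 FPKM, and the same number would have given 0.107 to 0.119 FPKM in the DKO libraries, so no difference was detectable at this depth. The 2 annotated transcripts were counted as 1 gene, which leaves p16 and ARF unseparated. Cdkn2b, which encodes p15, had 1, 4 and 1 reads in p21TKO replicates 1, 2 and 3 and 1, 1 and 0 reads in DKO replicates 1, 2 and 3 (ENSMUSG00000073802, 89306299 to 89311039), or 0.0372, 0.125 and 0.0266 FPKM in p21TKO and 0.0299, 0.0334 and 0 FPKM in DKO. The exact permutation p was 1 for Cdkn2a and 0.3 for Cdkn2b.
Both Cdkn2a starts are shown because the gene had 0 reads in 5 of 6 libraries, with 250 bases before each start at chr4:89294620-89294869 and chr4:89282193-89282442, minus strand, RefSeq, GRCm38.p6, and GGGCGG in capitals.
Cdkn2a window 1: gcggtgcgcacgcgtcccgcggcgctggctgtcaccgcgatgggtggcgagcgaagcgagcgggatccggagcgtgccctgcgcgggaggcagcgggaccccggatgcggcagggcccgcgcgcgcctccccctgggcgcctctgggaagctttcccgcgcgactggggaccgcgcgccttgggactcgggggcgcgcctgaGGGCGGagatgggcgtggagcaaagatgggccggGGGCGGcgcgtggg
Cdkn2a window 2: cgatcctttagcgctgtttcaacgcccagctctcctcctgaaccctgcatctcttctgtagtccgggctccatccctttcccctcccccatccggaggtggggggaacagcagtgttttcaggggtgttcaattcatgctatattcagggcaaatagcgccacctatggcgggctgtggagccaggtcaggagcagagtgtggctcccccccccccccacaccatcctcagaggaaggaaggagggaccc
The first window, farther from the gene's end, held 40 CpG dinucleotides, more than 98.7% of all windows, and 2 copies of GGGCGG, and the second held 7 CpG and 0 copies.

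**Figure D3:**
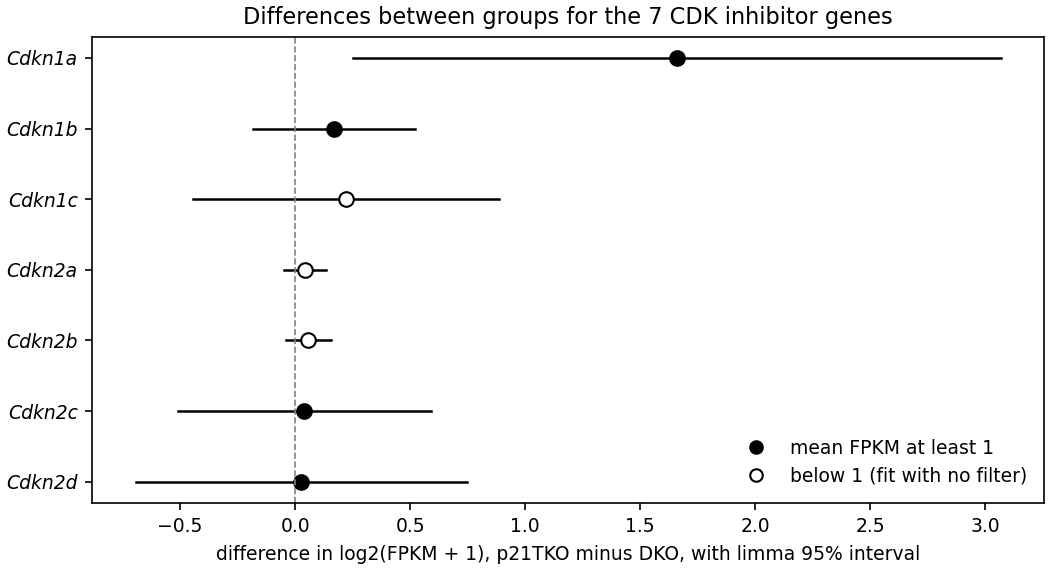
Difference in log2(FPKM + 1), p21TKO minus DKO (horizontal axis), for the 7 genes, with limma 95% intervals; filled points had a mean of at least 1 FPKM and open points come from the fit with no filter. Cdkn1a stands at 1.66 with an interval from 0.25 to 3.07, and the intervals of the other 6 genes include 0.

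The order of the members differed between the groups at the top. In p21TKO the order by mean was Cdkn1a (6.32 FPKM), Cdkn1b (5.09), Cdkn2c (3.24), Cdkn2d (1.63), Cdkn1c (0.923), Cdkn2b (0.0630) and Cdkn2a (0.0315). Of these neighbours only Cdkn1b and Cdkn2c, and Cdkn1c and Cdkn2b, had ranges that did not overlap. In DKO the order was Cdkn1b (4.43 FPKM), Cdkn2c (3.15), Cdkn2d (1.44), Cdkn1a (0.986), Cdkn1c (0.625), Cdkn2b (0.0211) and Cdkn2a (0), and only Cdkn2c and Cdkn2d, and Cdkn1c and Cdkn2b, were apart. Cdkn1a ranked 3, 1 and 1 in p21TKO replicates 1, 2 and 3 and 5, 3 and 4 in DKO replicates 1, 2 and 3. It supplied 14.1%, 45.7% and 36.7% of the summed FPKM of the 7 genes in p21TKO replicates 1, 2 and 3 and 7.41%, 14.6% and 4.29% in DKO replicates 1, 2 and 3. The ratio of Cdkn1a to Cdkn1b was 0.294, 2.14 and 1.22 in p21TKO and 0.200, 0.390 and 0.0832 in DKO. Without Cdkn1a the other 6 genes summed to 8.58, 13.1 and 11.2 FPKM in p21TKO and 9.52, 10.4 and 9.04 FPKM in DKO. The INK4 sums were 3.36, 6.40 and 5.12 FPKM in p21TKO and 4.68, 5.35 and 3.81 FPKM in DKO. p21TKO replicate 1 had the lowest sum of all libraries both without Cdkn1a and for the INK4 genes.

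**Figure D4:**
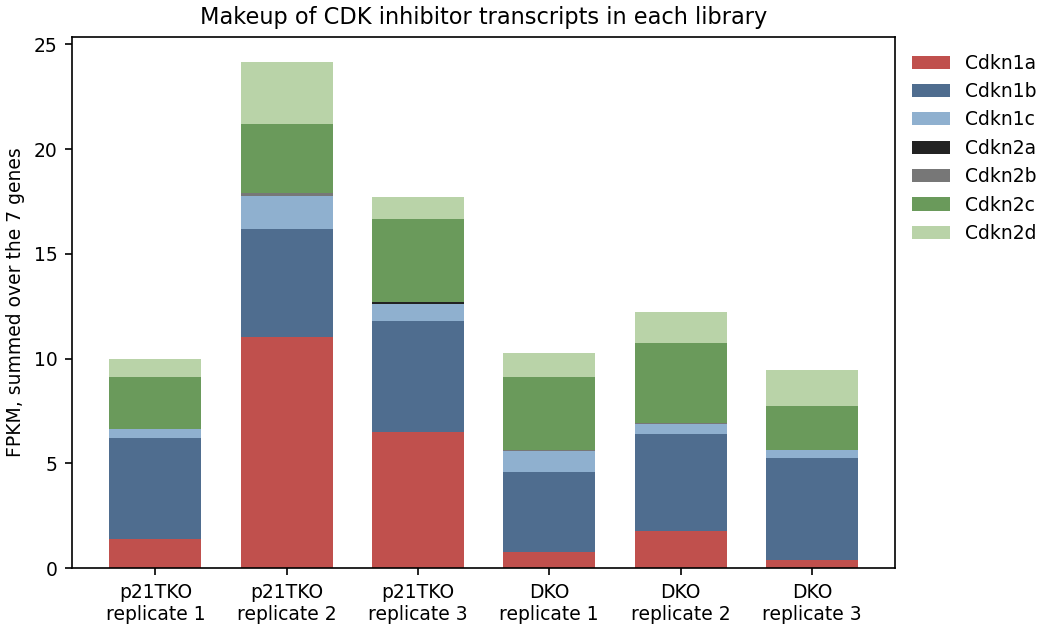
FPKM of the 7 CDK inhibitor genes stacked for each library (vertical axis, from 0), p21TKO to the left of DKO. The totals are 9.99, 24.2 and 17.7 FPKM in p21TKO and 10.3, 12.2 and 9.44 FPKM in DKO, and Cdkn1a makes up 45.7% and 36.7% in p21TKO replicates 2 and 3.

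Genes that act with the CDK inhibitors were read from 8 pathway lists. Of 142 such genes listed in the deposited values, 86 were high enough to test, and limma called 0, with 5 at an unadjusted p under 0.05 (5.81%) and 0 called by voom. Their values were higher in p21TKO for 36 and lower for 50, with a median log2 difference of -0.057 beside 0.0016 over all tested genes. Without p21TKO replicate 1, limma called 2 of them, Ddit4 (1.29, adjusted p = 0.0426) and Foxo3 (-1.43, adjusted p = 0.0365), beside 5.19% of all genes in that fit. As stated for Cdkn1a, genotype is largely confounded there with Y-linked transcripts. For both genes the library left out was the p21TKO library that lay among the DKO libraries, so these calls add no support.

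The kinases and cyclins that the inhibitors bind did not pass. Of 10 tested cyclin, CDK and pocket protein genes, 4 had higher and 6 lower values in p21TKO (median -0.11). Cdk6, an INK4 partner, stood at 1.21, 0.673 and 1.19 FPKM in p21TKO and at 1.87, 1.69 and 1.75 FPKM in DKO, with groups that did not overlap (-0.47, limma adjusted p = 0.523). Separation in this direction was seen in 8.49% of all tested genes, and the genes named here had the smallest p in their list. Ccnd1, the cyclin D1 gene, stood at 1.46, 1.67 and 5.16 FPKM in p21TKO and 17.3, 3.296 and 5.18 FPKM in DKO (-1.19, limma adjusted p = 0.546), and its DKO mean rested on replicate 1. Rbl2, the gene of the pocket protein p130 (-0.36), and Cdk2 (-0.20) had limma adjusted p of 0.576 and 0.691.
The E2F and DREAM factors, which act below the pocket proteins, had 3 higher and 7 lower values of 10 tested (median -0.074). Lin37, a DREAM subunit gene, stood at 5.395, 4.99 and 3.67 FPKM in p21TKO and 2.31, 3.45 and 3.08 FPKM in DKO (0.53, limma adjusted p = 0.523), again with groups that did not overlap, as for 6.93% of all tested genes in this direction. Tfdp2 (-0.17), E2f6 (-0.14) and E2f5 (-0.13) did not pass either (limma adjusted p from 0.696 to 0.792).
Division genes were low, with 4 of 22 S phase and mitosis genes tested, 2 higher and 2 lower (median 0.12). Pcna, the replication clamp that p21 protein binds, stood at 9.38, 11.8 and 16.3 FPKM in p21TKO and 9.95, 8.17 and 8.98 FPKM in DKO (0.40, limma adjusted p = 0.580). Tk1, a thymidine kinase gene, stood at 5.395, 1.90 and 0.597 FPKM in p21TKO and 4.42, 4.23 and 3.84 FPKM in DKO (-0.74, limma adjusted p = 0.602). Mcm7 (0.33) and Aurka (-0.089) did not pass.

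The lists of p53 targets and of regulators of the inhibitors each gave 0 calls by limma and 0 by voom. The p53 targets, with which Cdkn1a is usually grouped, had 7 higher and 10 lower values of 17 tested (median -0.027), 0 of them at an unadjusted p under 0.05. Ddit4, an inhibitor of mTOR signalling, stood at 9.53, 31.3 and 20.7 FPKM in p21TKO and 9.60, 11.4 and 8.59 FPKM in DKO (0.85, limma adjusted p = 0.536). Like Cdkn1a it was highest in p21TKO replicates 2 and 3. Perp, a desmosome gene, stood at 48.2, 40.1 and 27.8 FPKM in p21TKO and 51.7, 51.9 and 50.8 FPKM in DKO (-0.44, limma adjusted p = 0.587), with every p21TKO library below every DKO library, as for 8.49% of all tested genes. Tigar (0.31) and Aen (0.46) did not pass.
Trp53, the p53 gene, stood at 2.68, 3.77 and 5.39 FPKM in p21TKO and 2.72, 3.25 and 2.70 FPKM in DKO (0.31, limma adjusted p = 0.631). It belonged to the Polycomb and ARF partners, of which 7 of 14 tested had higher values (median -0.0045). Among these the Polycomb genes Phc2 and Suz12 stood at 4.83 ± 0.186 and 4.67 ± 1.08 FPKM in p21TKO and 3.54 ± 1.15 and 5.63 ± 0.369 FPKM in DKO, and Tbx3, a repressor gene, at 2.12 ± 0.803 FPKM in p21TKO and 3.13 ± 0.806 FPKM in DKO (SD, n = 3 each).
The ubiquitin ligase parts, which act in the breakdown of p21 and p27, had 6 higher and 6 lower values of 12 tested (median 0.036), with 0 at an unadjusted p under 0.05. Ubac1, Skp1a and Cul1 stood at 8.49 ± 1.96, 63.2 ± 18.5 and 14.7 ± 3.86 FPKM in p21TKO and at 6.13 ± 1.16, 74.9 ± 5.46 and 12.1 ± 1.201 FPKM in DKO (SD, n = 3 each). Skp2, which recognises p27, was listed at 0 in all 6 libraries.
Of the FOXO and TGF-beta regulators 7 had higher and 10 lower values of 17 tested (median -0.046), 2 of them at an unadjusted p under 0.05. Klf6, a zinc finger transcription factor gene, stood at 1.96, 4.22 and 3.34 FPKM in p21TKO and 1.14, 2.03 and 1.33 FPKM in DKO (0.72, limma adjusted p = 0.523). Smad3, a TGF-beta signal transducer, stood at 2.42, 1.47 and 1.35 FPKM in p21TKO and 2.16, 3.04 and 4.29 FPKM in DKO (-0.59, limma adjusted p = 0.523). Foxo3, a forkhead transcription factor gene, stood at 10.7, 3.83 and 1.99 FPKM in p21TKO and 9.59, 10.8 and 7.63 FPKM in DKO (-0.89, limma adjusted p = 0.567), so p21TKO replicate 1 lay among the DKO libraries. Tgfb1 stood at 1.87 ± 0.763 FPKM in p21TKO and 0.974 ± 0.265 FPKM in DKO (SD, n = 3 each).

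The genes whose pattern was most like that of Cdkn1a over the 6 libraries included neutrophil genes. Likeness was Pearson's r of log2(FPKM + 1), given as a description. It was taken among the 1075 protein-coding genes with a mean of at least 1 FPKM and an SD of at least 0.5 times that of Cdkn1a. Of these 97 had an r over 0.9. Both conditions use all 6 libraries, so low genes can enter through high values in p21TKO replicates 2 and 3, the pattern of Cdkn1a itself. The nearest was S100a9, a neutrophil calcium-binding protein gene (r = 0.994), at 13.9, 266.9 and 102 FPKM in p21TKO and 7.10, 16.6 and 7.24 FPKM in DKO. Cyp26b1, a retinoic acid-degrading enzyme gene (r = 0.987), Ddit4 (r = 0.984) and Retnlg, another neutrophil gene (r = 0.984), followed. Cyp26b1 entered in this way, at 0.251, 6.38 and 2.77 FPKM in p21TKO and 0.226, 0.643 and 0.00841 FPKM in DKO. The nearest to Cdkn1b were Atg2b (r = 0.998), Camk2b (0.984), Polr3c (0.980) and Ric8a (0.978), to Cdkn2c Oard1 (0.971), Borcs7 (0.949), Sarnp (0.944) and Dnal4 (0.938), and to Cdkn2d Pdia5 (0.978), Atp11a (0.975), Tfr2 (0.964) and Ripk1 (0.961). All these values share the same 6 libraries.

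The marker lists were read beside Cdkn1a in the same libraries. Summed neutrophil markers stood at 24.5, 542 and 218 FPKM in p21TKO replicates 1, 2 and 3 and at 10.3, 27.8 and 11.98 FPKM in DKO replicates 1, 2 and 3, with 5 of 5 tested markers higher, 0 called by limma and 4 at an unadjusted p under 0.05. Of the 9 listed, Ly6g, Ngp, Camp and Ltf were at 0 in at least 1 library, and of these Ngp and Camp were tested. The filter uses the mean over all libraries, so a low gene can pass it through high values in 1 group. The count of 5 of 5 is thus not independent of the filter. For comparison, 4.09% of all tested genes were higher in p21TKO at an unadjusted limma p under 0.05. By the neutrophil sums, the order of the 6 libraries was that of Cdkn1a except for the lowest pair, DKO replicates 1 and 3, which changed places.
Acute phase genes summed to 4104, 41178 and 20612 FPKM in p21TKO and 5607, 7847 and 5590 FPKM in DKO (9 of 10 higher, 0 called). Endothelial markers summed to 16.3, 76.7 and 40.2 FPKM in p21TKO and 25.6, 18.4 and 15.8 FPKM in DKO (8 of 8 higher, 0 called), and Kupffer cell and macrophage markers to 14.0, 112.6 and 81.1 FPKM in p21TKO and 43.4, 32.4 and 18.0 FPKM in DKO (7 of 7 higher, 0 called). None of these was at 0 in any library. Stellate cell and fibroblast markers summed to 26.9, 39.1 and 35.8 FPKM in p21TKO and 23.8, 14.6 and 15.7 FPKM in DKO (4 of 6 higher, 0 called, 2 at an unadjusted p under 0.05), again with none at 0. Of the acute phase, endothelial and Kupffer cell genes 0 had an unadjusted p under 0.05, and voom called 0 genes of any list. All 5 sums were highest in p21TKO replicates 2 and 3, the libraries with the highest Cdkn1a, and their part in the Cdkn1a values was not tested. In bulk RNA, more cells of a type and more RNA per cell cannot be told apart.
The other marker sums given here did not share that pattern. Cholangiocyte markers ranged from 6.91 to 27.3 FPKM in p21TKO and from 7.003 to 18.5 FPKM in DKO (1 of 1 tested higher, Cftr at 0 in at least 1 library). The 5 tested erythroid genes summed to 856, 596 and 20.3 FPKM in p21TKO and 119, 669 and 246 FPKM in DKO, with 1 higher and 4 lower values in p21TKO, and p21TKO replicates 2 and 3 lay far apart. They are copies of globin genes, among which reads can be split, and Alas2. Lymphocyte markers summed to 0.29 to 1.24 FPKM in p21TKO and 1.68 to 2.59 FPKM in DKO, with 0 of 9 high enough to test and Cd3e, Cd79a, Ms4a1 and Ncr1 at 0 in at least 1 library. Hepatocyte markers had 4 of 8 higher values, and 3 of the 8 were higher with groups that did not overlap, beside 6.93% of all tested genes. Without p21TKO replicate 1, limma called 5 of 5 neutrophil, 5 of 10 acute phase, 4 of 8 endothelial and 1 of 7 Kupffer cell genes, all higher, beside 2.36% of all genes. It called 0 of 6 stellate cell and fibroblast genes. This fit leaves out the p21TKO library in which these lists were lowest, so its calls add no support to the sums above. Genotype is also largely confounded in it with Y-linked transcripts.

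**Figure D5:**
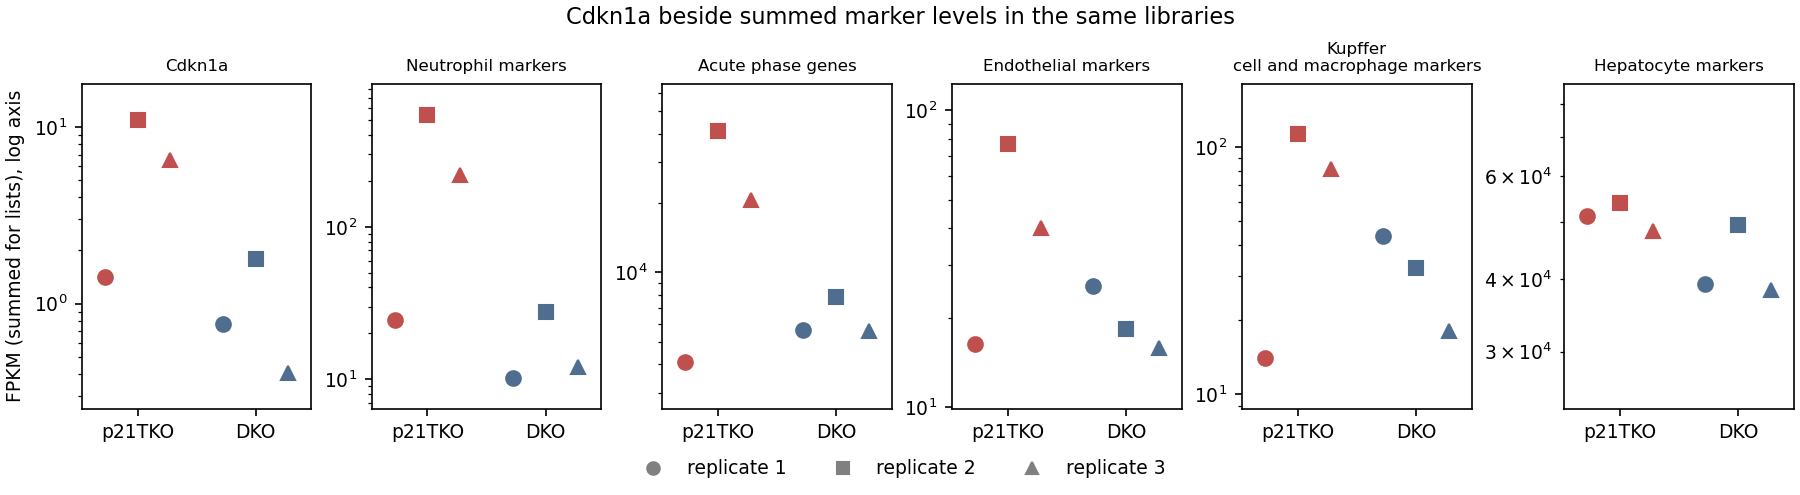
FPKM of Cdkn1a and summed FPKM of 5 marker lists in each library (log axes, each panel on its own scale), p21TKO in red and DKO in blue. Cdkn1a and the first 4 lists are highest in p21TKO replicates 2 and 3, while hepatocyte markers lie between 38302 and 54093 FPKM in all 6 libraries.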

How the data were processed

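Liver polyA RNA of 3 p21TKO and 3 DKO libraries was prepared with a TRIzol extraction and a NEBNext Ultra kit, per the labels' protocols. The authors deposited 1 FPKM value per gene and library. Tools named in the submitters' processing notes are DESeq2 1.20.0, featureCounts 1.5.0-p3, HISAT2 2.0.5, fastp and CASAVA 1.8, with no role or order, and no source gives the strand setting. GRCh38 and hg38 are the builds in those notes, whereas the identifiers are mouse, so positions and exon lengths were taken from GENCODE M21 (GRCm38) for the 55480 of 55573 identifiers it holds. Deposited FPKM times exon length fell within 0.02 reads of a whole multiple of 1 library-wide step for 99.3% of the values above 0 in every library, which gave reads and denominators. A gene at 0 reads has the FPKM of 3 reads as its limit.

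The members, lists and motifs were chosen with earlier results of these data known. Genes with a mean of at least 1 FPKM entered a limma 3.58.1 fit of log2(FPKM + 1) with a trended prior in R 4.3.3 with Benjamini-Hochberg adjustment over 9538 genes, called under 0.05. Single genes also got an exact permutation test (scipy 1.17.1). The limma step was tested on simulated data. No set tests were run. The genes named are the members, Wrn and Terc, and up to 4 genes per pathway list with the smallest p. Also named are the 4 protein-coding genes, among the tested genes, most like each tested member. The alternatives were the pseudocount, the filter, scaling, the variance model, a replicate block, a term for Y-linked transcripts, voom on recovered reads and leaving out each library. The name Kpc1 in the ubiquitin list was not matched. For the erythroid list only the tested genes were summed, and 1 gene of it is not reported here.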

Additional observations from a re-analysis of the deposited data

How the results depend on the processing

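The Cdkn1a difference kept its direction under all alternatives run, from 1.36 to 2.55 under the other settings (limma adjusted p from 0.515 to 0.703) and between 1.16 and 2.32 with single libraries omitted (limma adjusted p from 0.0224 to 0.940). The only call was that without p21TKO replicate 1, at 2.32, where genotype is largely confounded with Y-linked transcripts. That fit leaves out the p21TKO library with the lowest Cdkn1a, so its call adds no support. Of the other CDK inhibitors, Cdkn1b, Cdkn2c and Cdkn2d were tested under every alternative and 0 were called; Cdkn1c was tested only with no filter and with a minimum mean of 0.1 FPKM, and Cdkn2a and Cdkn2b only with no filter, also with 0 called. Leaving out a library moved Cdkn1c between -0.0052 and 0.41. The Cdkn2d difference, 0.027 as reported, was -0.017 at a pseudocount of 0.1, -0.013 as TPM, -0.025 with a term for Y-linked transcripts and -0.016 with voom, and its leave-one-out values spanned -0.31 to 0.22, while Cdkn2c was -0.068 with the Y-linked term and spanned -0.16 to 0.18 likewise. The cause was not tested; both lie within their intervals around 0. Over all genes, 7 as reported, the number called was 1 with no filter, 1 with voom and 1 to 495 when a library was left out. It was 495 without p21TKO replicate 1, 2 without p21TKO replicate 2, 3 without p21TKO replicate 3, 4 without DKO replicate 1 and 1 without DKO replicate 3. Of 136 pathway and marker genes 0 were called as reported (11 at an unadjusted limma p under 0.05), and 0 to 17 when a library was left out, 17 without p21TKO replicate 1. Same-numbered libraries did not deviate together (r of deviations -0.44, -0.49 and -0.072 for numbers 1, 2 and 3, and 0 of 6 libraries closest to its own number). With 3 libraries per group this cannot exclude a pairing by number. With the replicate block limma called 0 genes (588 at an unadjusted p under 0.05). Medians in place of means left the order of the members as given. Depth limits Cdkn2a and Cdkn2b, with at most 4 reads per library.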
